A study of Mus musculus with 2 samples.

Results

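The unfolded protein response of the endoplasmic reticulum (ER) was followed through 10 genes in iBAT, the interscapular depot of brown fat, a tissue that burns fuel for heat. The genes, Ern1, Eif2ak3, Atf6, Xbp1, Hspa5, Hsp90b1, Dnajb9, Sdf2l1, Pdia4 and Herpud1, were taken by symbol, and all 10 were found among the 27179 genes listed in both count tables. The tissue came from untreated mice that were 20 days old, on the C57BL/6N background and described as male. There was 1 library from wild-type animals and 1 from Ucp1 knockout (Ucp1-KO) animals, Ucp1 being the gene for uncoupling protein 1, and each library was made from the iBAT of 3 pooled animals. With 1 library per genotype there was no replicate and no test, so each difference below is one between these 2 libraries and is set against counting error only.

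Proteins that are secreted or placed in membranes fold inside the ER with the help of chaperones and of enzymes that form disulfide bonds. When unfolded protein builds up, 3 sensors in the ER membrane respond. IRE1 (encoded by Ern1) splices the Xbp1 mRNA so that it encodes an active transcription factor, PERK (Eif2ak3) slows translation and favours the making of the transcription factor ATF4, and ATF6 (Atf6) is cut in the Golgi apparatus to release a transcription factor. Their target genes raise folding capacity and send misfolded protein to degradation. In brown adipocytes, proteins such as the secreted enzyme lipoprotein lipase fold there. Counts per gene show the amount of a transcript and not the splicing of Xbp1, the cutting of ATF6 or the phosphorylation of PERK and IRE1.

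The libraries held 52950913 counts (wild-type) and 53216727 counts (Ucp1-KO). Ucp1 itself was counted 366473 times in wild-type and 37853 times in the library labelled Ucp1-KO. This was 12.7% of the wild-type level after normalisation, and per kb of transcript it was still at percentile 99.4 of the genes examined there that have a length. Several other transcripts moved with the libraries. The 4 Y-linked genes of a marker list had no count in the wild-type library and 5305 counts together in the Ucp1-KO library, among them Ddx3y with 0 and 3446, although the animals are described as male, so genotype and sex cannot be told apart. Each of 12 skeletal muscle markers was lower by 2-fold or more in Ucp1-KO, with 264927 counts in sum in wild-type and 27399 in Ucp1-KO (for Acta1, skeletal muscle actin, 76457 and 5916). The share of counts from mitochondrially encoded genes was 22.4% (wild-type) and 36.7% (Ucp1-KO). The 8 brown adipocyte markers were all present, the lowest with 968 (wild-type) and 889 (Ucp1-KO) counts. In bulk tissue, fewer cells of a type and less RNA per cell cannot be told apart.

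Levels are given as counts, or as normalised counts, which are counts divided by a size factor for each library. The log2 ratio is the log2 of the normalised Ucp1-KO count over the normalised wild-type count, each with 0.5 added, and its 95% interval covers counting error. Among the 10 genes 4 were higher in the Ucp1-KO library beyond counting error (Dnajb9, Atf6, Hspa5 and Ern1), 2 were lower (Herpud1 and Pdia4) and the intervals of 4 spanned 0 (Hsp90b1, Xbp1, Eif2ak3 and Sdf2l1). Of the 15212 genes examined, whose normalised counts averaged 10 or more, the interval lay above 0 in 31.5% and below 0 in 30.5%, so both counts of members were near what the other genes gave. With total counts as the scale, which lowers the median of all genes by 0.31 (a shift of -0.31), 3 members lay above 0 and 6 below, beside 14.4% and 53.9% of all genes at that scale. None of the 10 reached a 2-fold difference in either direction, against 7.42% of all genes that were higher by 2-fold or more and 9.55% that were lower by as much. The higher genes were 43.7% of those past 2-fold, and 24.0% with total counts, where Herpud1 also passed 2-fold. The median log2 ratio of the members was -0.01 and their mean 0.07, beside a median of 0.00 (-0.0016) and a mean of -0.04 over all genes. The members with the largest ratios in size pointed in opposite directions.

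**Figure D1:**
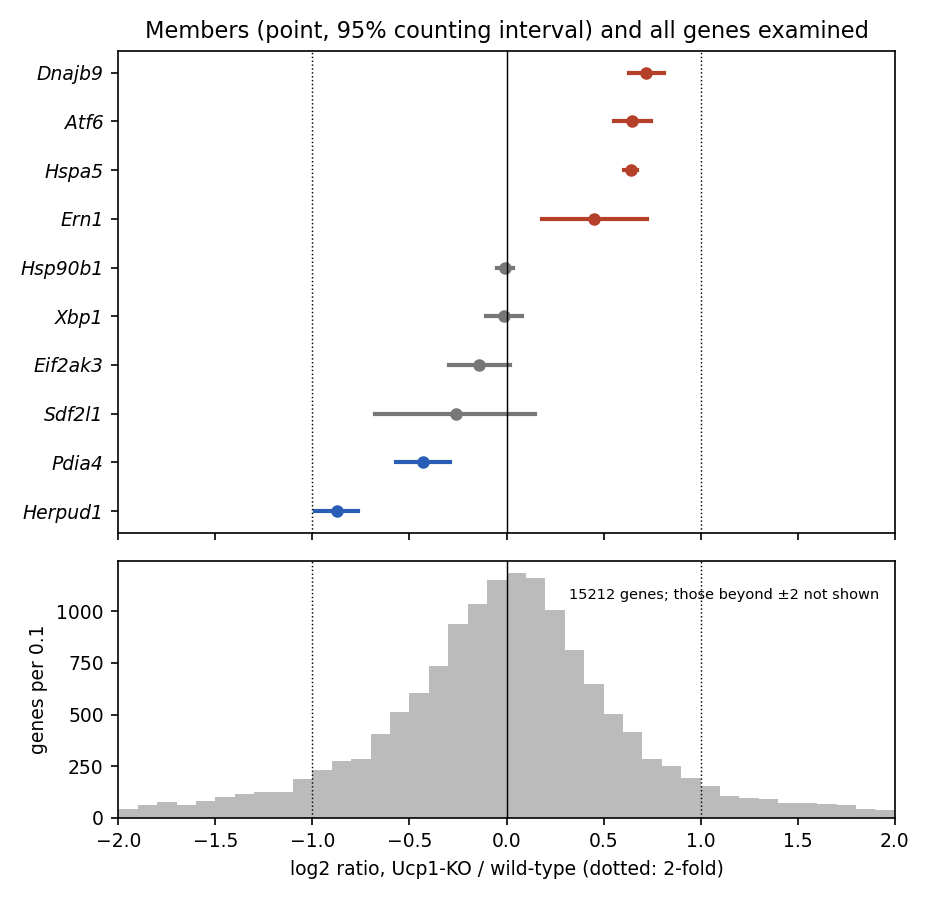
The log2 ratio of Ucp1-KO over wild-type of each of the 10 genes (upper panel, points, with bars for the 95% counting interval; red above 0, blue below 0, grey spanning 0) over the number of genes per 0.1 of log2 ratio among the 15212 genes examined (lower panel). Dnajb9 (0.72), Atf6 (0.65), Hspa5 (0.64) and Ern1 (0.45) lie to the right of 0, Pdia4 (-0.43) and Herpud1 (-0.87) to the left, and no gene passes the dotted 2-fold lines.

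The sensors were considered first. Atf6 (Entrez gene 226641, chr1:170532026-170696208, minus strand, GRCm39) was counted 3189 times in wild-type and 4060 times in Ucp1-KO. After normalisation this was 157% of the wild-type level (interval 147% to 167%), or 0.65 (0.55 to 0.74) as a log2 ratio. Ern1 (gene 78943, chr11:106283818-106378686, minus strand), the least abundant of the 10 genes per length, had 428 and 476 counts. That gave a log2 ratio of 0.45 with the wide interval of 0.18 to 0.73. Its direction was the same under each scaling tried, but with total counts (0.15) its interval spanned 0. Eif2ak3 (gene 13666, chr6:70821461-70882235, plus strand) had 1596 and 1177 counts and a log2 ratio of -0.14 (-0.30 to 0.02), which did not exceed counting error. With total counts its value was -0.45, and its interval lay below 0. With the size factors used here, the transcripts of IRE1 and ATF6 were thus higher in the Ucp1-KO library. For PERK the difference lay within counting error, which depended on the scaling. Within a library, where no scaling enters, there were 0.268 counts of Ern1 for each count of Eif2ak3 in wild-type and 0.404 in Ucp1-KO. For Atf6 against Eif2ak3 these values were 2.00 and 3.45, and their log2 ratios differed by 0.79 (0.61 to 0.97).

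Xbp1 (gene 22433, chr11:5470606-5483027, plus strand), which encodes the transcription factor that IRE1 activates by splicing, had 4417 and 3557 counts. After normalisation the levels were 3981 and 3946, which gave -0.01 (-0.10 to 0.08) on the log2 scale, or -0.32 with total counts. Part of its annotated exon sequence, 1526 bases, also lies in exons of Ccdc117 on the opposite strand, and how strand was used in counting is not given in the sources used here. Ccdc117 had 1935 and 1699 counts, and its own ratio was 0.11 (-0.02 to 0.25).

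The ER chaperones came next. Hspa5 (gene 14828, chr2:34661982-34668880, plus strand) encodes BiP, the abundant ER chaperone that binds unfolded chains and also holds the sensors inactive. Wild-type had 24622 counts of it (95% Poisson interval from 24189 to 25061), and Ucp1-KO had 31184 (from 30696 to 31677). The log2 ratio was 0.64 (0.61 to 0.67), or 156% of the wild-type level. Its annotated exons share 2457 bases with Rabepk on the other strand, a gene with 797 and 827 counts and a log2 ratio of 0.35 (0.15 to 0.56). The part of this overlap in the Hspa5 value was not tested. Hsp90b1 (gene 22027, chr10:86526073-86541446, minus strand) encodes GRP94, the ER form of HSP90, which folds a narrower set of client proteins. It had 21150 and 17110 counts, and normalised levels of 19064 and 18983. Here the log2 ratio was -0.01 with a narrow interval of -0.05 to 0.04, and -0.31 with total counts. The proportion of these transcripts thus differed between the libraries, with 1.16 counts of Hspa5 for each of Hsp90b1 in wild-type and 1.82 in Ucp1-KO. The difference between their log2 ratios was 0.65 (0.59 to 0.70).

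The co-chaperones of BiP were also split. Dnajb9 (gene 27362, chr12:44252341-44257171, minus strand) encodes ERdj4, a J-domain partner of BiP that acts in degradation of misfolded protein and in repressing IRE1. Its counts were 3486 (3324 to 3654) for wild-type and 4662 (4475 to 4855) for Ucp1-KO. With a log2 ratio of 0.72 (0.63 to 0.81), or 165% of the wild-type level, it stood highest of the 10 genes, though its interval overlapped those of Atf6, Hspa5 and Ern1. Sdf2l1 (gene 64136, chr16:16948002-16950252, minus strand), a small ER protein that binds J-domain proteins of the BiP cycle, had 248 and 168 counts. Its log2 ratio of -0.26 had an interval of -0.68 to 0.15, so that a difference was not detectable at this depth. For each count of Sdf2l1 there were 14.1 of Dnajb9 in wild-type and 27.8 in Ucp1-KO, so that their log2 ratios differed by 0.98 (0.57 to 1.39).

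The members below 0 beyond counting error were Pdia4 and Herpud1. Pdia4 (gene 12304, chr6:47770077-47790462, minus strand) encodes ERp72, a protein disulfide isomerase of the ER. The counts were 2260 (2130 to 2396) for wild-type and 1361 (1261 to 1467) for Ucp1-KO, which gave a log2 ratio of -0.43 (-0.57 to -0.29), or 74.1% of the wild-type level. Herpud1 (gene 64209, chr8:95113022-95123141, plus strand) encodes HERP, an ER membrane protein that organises the complex for ER-associated degradation. Herpud1 was counted 4441 times (4258 to 4630) in wild-type and 1968 times (1847 to 2095) in Ucp1-KO. Its log2 ratio of -0.87 (-0.98 to -0.77), or 54.6% of the wild-type level (50.5% to 58.8%), was the furthest from 0 of the 10 genes. Of all genes examined, 11.5% had a ratio at or below that of Herpud1.

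Herpud1 and Dnajb9 both serve ER-associated degradation, and they lay furthest apart. In the wild-type library there were 0.785 counts of Dnajb9 for each count of Herpud1, and in the Ucp1-KO library 2.37. The difference in log2 ratio was 1.59 (1.45 to 1.73). In all, 45 pairs of the 10 genes can be formed, and in 32 of them the interval of this difference excluded 0. Over all genes 31.5% of single-gene intervals lay above 0 and 30.5% below, and the share over pairs of all genes was not computed. The count of pairs is thus not read as a trait of these 10 genes. The pairs that kept their proportion within counting error included Hspa5 with Dnajb9 (7.06 counts of Hspa5 per count of Dnajb9 in wild-type and 6.69 in Ucp1-KO), Hspa5 with Atf6 (7.72 and 7.68) and Hsp90b1 with Xbp1 (4.79 and 4.81). Such proportions between genes do not depend on how the libraries are scaled.

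Levels were then set per kb of the canonical transcript, which allows genes to be compared with each other. In the wild-type library the order from high to low was Hsp90b1 (6736 normalised counts per kb), Hspa5 (4481), Xbp1 (2022), Herpud1 (1284), Dnajb9 (1277), Atf6 (381), Pdia4 (371), Eif2ak3 (316), Sdf2l1 (201) and Ern1 (55.1). Herpud1 and Dnajb9, and likewise Atf6 and Pdia4, had overlapping counting intervals there. In the Ucp1-KO library Hspa5 came first (6985), before Hsp90b1 (6708). Dnajb9 (2102) and Xbp1 (2004) followed with overlapping intervals, then Herpud1 (700.5), Atf6 (597), Eif2ak3 (287), Pdia4 (275), Sdf2l1 (167) and Ern1 (75.4). Of these neighbours Eif2ak3 and Pdia4 overlapped. Both libraries therefore placed the chaperones on top and the sensors Eif2ak3 and Ern1 low, with Hspa5 and Hsp90b1, Dnajb9 and Herpud1, Dnajb9 and Xbp1, and Pdia4 and Eif2ak3 changing places. The order rests on the length used. With the union of all annotated exons in place of the canonical transcript, Hspa5 ranked above Hsp90b1 in wild-type as well, and Xbp1 fell from the third to the fifth place there. With that length Dnajb9 stood above Xbp1, and Pdia4 above Eif2ak3, in both libraries, and those that changed places were Herpud1 with Dnajb9 and with Xbp1.

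**Figure D2:**
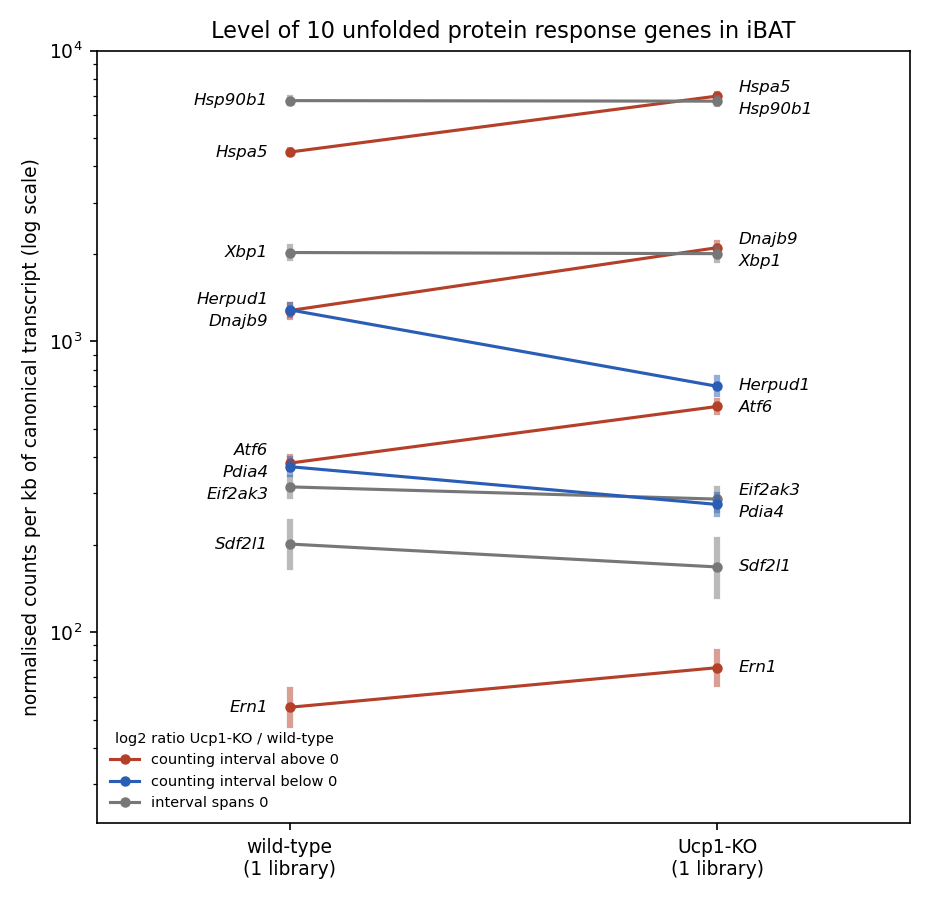
Normalised counts per kb of canonical transcript (log axis) of the 10 genes in the wild-type and the Ucp1-KO library, 1 library each, joined by a line per gene, with shaded bars for the 95% counting interval of each level. Herpud1 and Dnajb9 start together at 1284 and 1277 and end at 700.5 and 2102, while the lines of Hsp90b1 and Xbp1 are nearly level (-0.01 each in log2 ratio; -0.31 and -0.32 with total counts).

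Many ER chaperone genes carry the ER stress element (ERSE) in their promoters, which ATF6 and XBP1 can bind. It was searched for as CCAAT, then 9 bases of any kind, then CCACG. The related ERSE-II was searched as ATTGG, 1 base of any kind and CCACG. The unfolded protein response element (UPRE) was searched as TGACGTGG, its core as ACGTG, the cyclic AMP response element (CRE) as TGACGTCA, and the amino acid response element (AARE), which ATF4 can bind, as TTGCATCA. Windows from 250 bases before to 50 bases after the RefSeq transcription start (a table of build GRCm38.p6, placed in GRCm39 by exact match) were read on both strands for 9 of the 10 genes. Atf6 had no entry.

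An ERSE was found in 2 of the 9 windows, those of Hspa5 and Hsp90b1, against 0.119% of all 32851 promoter windows. Hsp90b1 had 2, the second on the reverse strand. An ERSE-II was found in the window of Herpud1 (0.0365% of all windows), which also held an AARE (0.895% of all windows). These sites are shown since they are the exact matches to the longer elements among the members, with the letters of ERSE, ERSE-II and AARE in capitals, 5′ to 3′ on the strand of the gene. They lie at chr2:34662032-34662061 (Hspa5, plus strand), chr10:86541496-86541525 and chr10:86541391-86541420 (Hsp90b1, minus strand), and chr8:95112937-95113021 (Herpud1, plus strand) of GRCm39. The Hspa5 site and the second Hsp90b1 site lie inside the gene spans given above, which begin upstream of the RefSeq starts.
Hspa5 ERSE: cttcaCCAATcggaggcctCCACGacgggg
Hsp90b1 distal ERSE: caagcCCAATcgcaaggagCCACGcttcgg
Hsp90b1 proximal ERSE, reversed: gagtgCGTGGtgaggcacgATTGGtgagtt
Herpud1 AARE and ERSE-II: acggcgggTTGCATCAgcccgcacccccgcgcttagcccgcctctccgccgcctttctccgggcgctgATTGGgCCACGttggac

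The 3 genes with an ERSE or ERSE-II had log2 ratios of 0.64 (Hspa5, ERSE), -0.01 (Hsp90b1, ERSE) and -0.87 (Herpud1, ERSE-II). With total counts these were 0.33, -0.31 and -1.18. The ACGTG core was found in 3 of the 9 windows, those of Hspa5, Dnajb9 and Herpud1, where in Herpud1 it overlapped the ERSE-II, and in 19.6% of all windows. No exact UPRE or CRE was found in the 9 windows (0.676% and 1.79% of all windows), which says only that these letters are not in them. Among the other genes of the pathway described below, 126 had a window, and 8 of them held an ERSE, 6.35% against 0.137% of all 27025 genes with a window. Their log2 ratios ran from -0.62 to 0.26 with a median of -0.03. The interval lay above 0 for 3 of the 8 and below 0 for 4, beside 31.5% and 30.5% of all genes examined. A UPRE was found in 9 of the 126 genes (7.14%, against 0.714% of all genes), of which 4 lay above and 3 below 0. The ACGTG core was found in 62 (49.2%, against 21.8% of all genes), of which 30 lay above and 16 below 0. The elements of Herpud1 were rare here. An ERSE-II was found in 1 of the 126 genes, with its interval below 0, and an AARE in 1, with its interval above 0 (0.0444% and 1.03% of all genes). A match to letters is a description and does not show that a factor was bound.

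**Figure D3:**
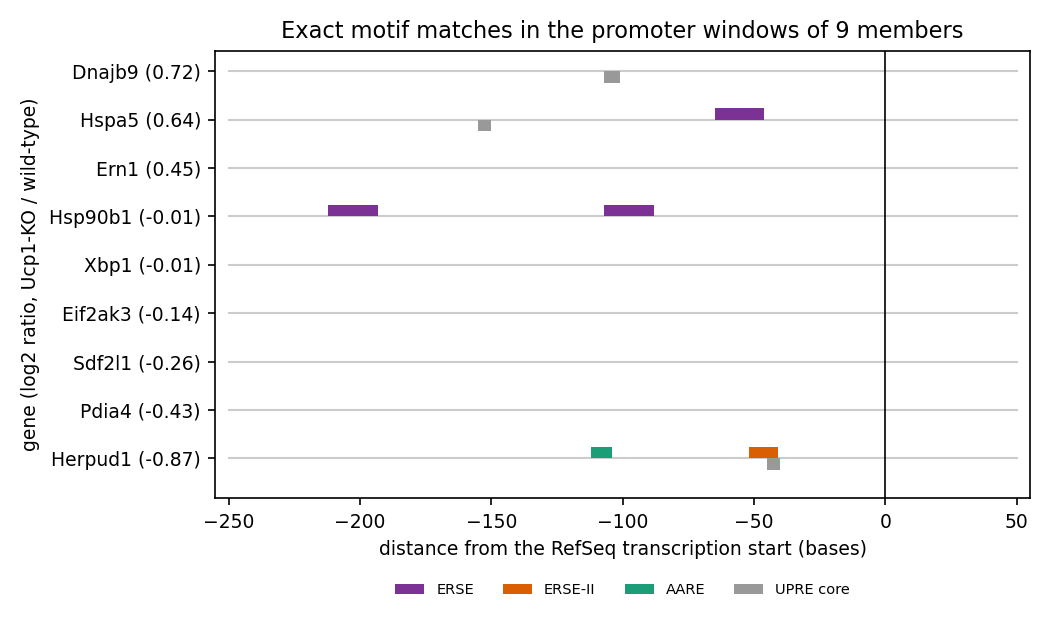
Exact matches to ERSE, ERSE-II, AARE and the short core of the UPRE (coloured bars) by distance in bases from the RefSeq transcription start in the windows of 9 genes, ordered by the log2 ratio of Ucp1-KO over wild-type given in parentheses. ERSE matches lie in Hspa5 (0.64) and Hsp90b1 (-0.01), and Herpud1 (-0.87) has the ERSE-II and the AARE.

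To place the 10 genes in their pathway, 163 further genes of ER protein folding, quality control and transport were examined in 11 lists by role. Of these 161 passed the filter on low counts, while Ern2, the IRE1 of gut epithelium, and Clgn, a chaperone of the testis, had no count in either library. The interval was above 0 in 71 (44.1%) and below 0 in 43 (26.7%), beside 31.5% and 30.5% of all genes, and with total counts the split was 19 above and 97 below, beside 14.4% and 53.9% of all genes at that scale. The median log2 ratio was 0.09, from -0.87 to 1.75. Higher by 2-fold or more were 5 genes (3.11%, against 7.42% of all genes), and no gene was lower by as much (9.55% of all genes). With total counts the median of every list but the PERK branch effectors (0.13) was below 0.

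The list named PERK branch effectors had the highest median. Of 9 genes 7 lay above 0 beyond counting error, 1 lay below and 1 spanned 0, with a median of 0.44. Over all genes examined 31.5% lay above and 30.5% below. The lists were chosen with earlier results of these data known, so the rank of this list is a description only. Atf4, the transcription factor whose translation PERK favours, had 3721 and 8375 counts and a log2 ratio of 1.47 (1.39 to 1.55). Ddit3, which encodes the transcription factor CHOP, had 1293 and 1958 counts and a log2 ratio of 0.90 (0.75 to 1.04). Ppp1r15a, which encodes GADD34, the phosphatase subunit that ends the translational block, had 1044 and 1808 counts and a log2 ratio of 1.09 (0.93 to 1.25). Trib3, a target of ATF4 and CHOP, had 519 and 451 counts, and its ratio of 0.10 (-0.17 to 0.36) did not exceed counting error. The gene below 0 was Dnajc3 (-0.14), an ER co-chaperone also known as an inhibitor of PERK. The other kinases of the same translation factor, eIF2alpha, all had intervals that spanned 0. Their log2 ratios were -0.09 for Eif2ak1, the heme-regulated kinase, -0.08 for Eif2ak2, which senses double-stranded RNA, and 0.14 for Eif2ak4, which senses lack of amino acids. These kinases and PERK act on the same factor, and counts do not show kinase activity. The name of the list therefore does not assign its values to PERK, and which kinase was active was not tested.

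The lists of other chaperones, disulfide enzymes and other sensors had lower medians. Other ER chaperones and co-chaperones had a median of 0.00 (0.0028), with 6 of 21 above and 6 below 0. Cdnf, an ER-resident trophic factor, had a log2 ratio of 1.06 (0.78 to 1.33), Hyou1, an exchange factor for BiP, of 0.43 (0.35 to 0.52), and Serpinh1, the collagen chaperone, of -0.72 (-0.78 to -0.66). All 6 fibroblast markers were lower too (median -0.16), and their part in the Serpinh1 value was not tested. Enzymes of disulfide formation had 6 of 16 above and 9 below 0, a median of -0.10 and a mean of 0.04. Their oxidases were split, with Ero1a at 0.73 (0.61 to 0.85) and Ero1b at -0.62 (-0.91 to -0.35), and the membrane-bound Tmx4 was at 0.77 (0.67 to 0.87). Other sensors and regulators had a median of -0.02 (2 of 9 above, 2 below). Mbtps1, the site-1 protease that cuts ATF6 (-0.31, from -0.41 to -0.21), and Atf6b, the relative of ATF6 (-0.28, from -0.47 to -0.08), were lower, while Rtcb, the ligase that completes Xbp1 splicing, was at 0.25 (0.16 to 0.34) and changed sign with total counts.

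In ER-associated degradation 13 of 25 genes lay above and 5 below 0 (median 0.15), so most of that list did not share the direction of Herpud1. Derl1, a subunit of the channel for export from the ER, lay lowest of the 5 at -0.78 (-0.92 to -0.64). Nploc4, a cofactor of the VCP ATPase, was at 0.38 (0.29 to 0.48). Transcripts that IRE1 is known to cleave directly had a median of -0.12, with 1 of 6 above and 3 below 0. Those below were Bloc1s1 (-0.39), the substrate most often followed, with 3200 and 1990 counts, Sparc (-0.43) and Pdgfrb (-0.30). The gene above 0 was Col6a1, a collagen gene, at 0.20 (0.10 to 0.29), which changed sign with total counts. The intervals of 2 genes spanned 0. Sparc and Pdgfrb also mark stromal cells, and markers of fibroblasts and of endothelium were lower as well (medians of -0.16 and -0.81). Their part in these values was not tested.

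Further along the secretory route, ER to Golgi transport had 14 of 21 genes above and 4 below 0 (median 0.15), led by the coat subunits Sec24a at 0.95 (0.83 to 1.08) and Sec24d at 0.67 (0.51 to 0.83). Kdelr3, a receptor that returns ER proteins, was at -0.57 (-0.98 to -0.18). N-glycosylation had 9 of 19 above and 6 below 0 (median 0.13). Tusc3, a subunit of the oligosaccharyltransferase, had 1272 and 3146 counts and a log2 ratio of 1.61 (1.47 to 1.74), while its catalytic subunit Stt3b was at 0.51 (0.41 to 0.61) and the mannosyltransferase Alg2 at 0.44 (0.26 to 0.62). Translocon and signal peptidase genes had 8 of 23 above and 5 below 0 (median -0.03), with Sec61a2 at 0.58, Sec62 at 0.33 and Tram1 at -0.43. ER calcium stores had 5 of 10 above and 3 below 0 (median 0.11). The calcium pump gene Atp2a2 was at 0.54 (0.51 to 0.58), and the inositol trisphosphate receptor genes Itpr2 and Itpr3 were at 0.59 and -0.87. The 5 genes higher by 2-fold or more were Atf4, Ppp1r15a, Cdnf, Tusc3 and Chac1, the last with 15 and 42 counts and named after its value was seen.

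**Figure D4:**
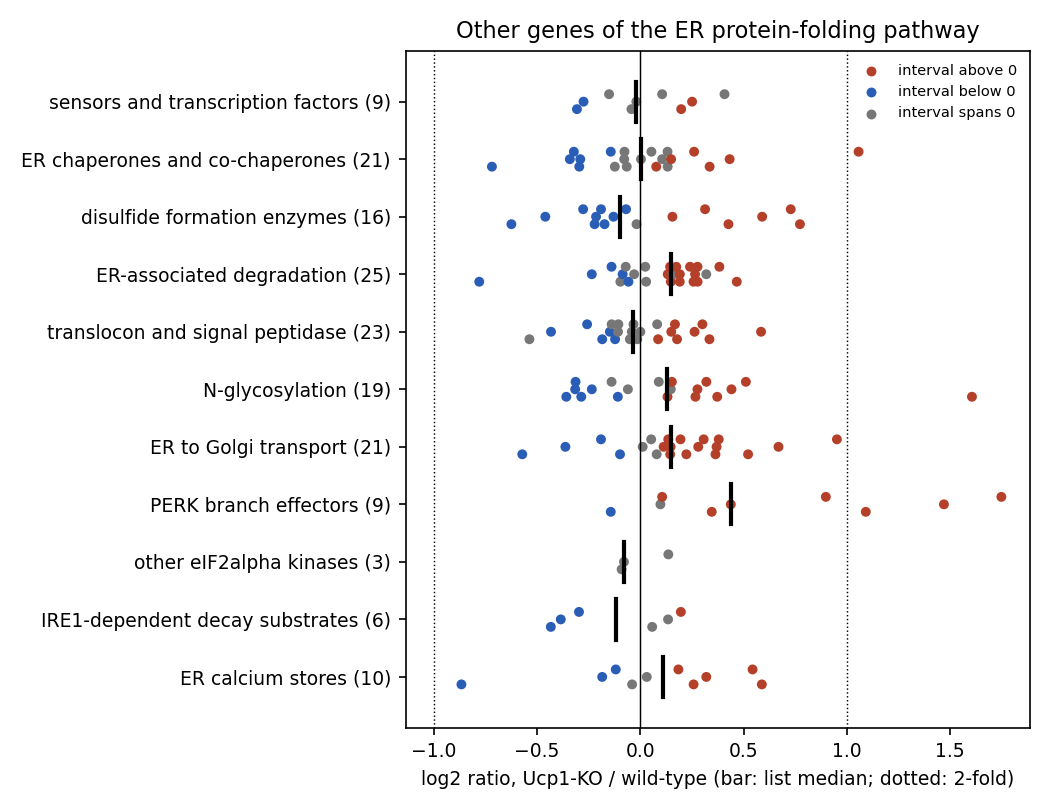
The log2 ratio of Ucp1-KO over wild-type of each further pathway gene (points; red where the counting interval lies above 0, blue below 0, grey spanning 0) in 11 lists by role, with the number of genes examined in parentheses and a black bar at the list median. The PERK branch effectors have the highest median (0.44), and no point lies left of the dotted 2-fold line at -1.

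Markers of other cell types moved between the libraries along with these genes. Brown adipocyte markers had 8 of 8 ratios above 0, 7 of them beyond counting error, with a median of 0.53, and made up 1.05% and 1.10% of all counts. Macrophage markers had a median of 0.53 (0.00973% and 0.0114% of counts), with 6 of 8 ratios above 0, 5 of them beyond counting error. Endothelial markers had a median of -0.81 (0.220% and 0.110% of counts), with 7 of 8 ratios below 0, all 7 beyond counting error. B and plasma cell markers, whose cells are rich in ER, had only 617 and 443 counts together. Apart from the Y-linked genes, no marker in these lists was at 0 in either library. The part of these cell types in the values of the 10 genes was not tested.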

How the data were processed

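RNA of iBAT was measured in 2 libraries, 1 per genotype, each from 3 pooled animals. The deposited values are raw counts of reads per gene (Entrez identifier and symbol), which the authors made with featureCounts. Per the labels, the libraries were strand-specific and poly-A enriched, and the submitters' processing notes name Trim Galore, HISAT2 and the build mm39 (GRCm39). The annotation and the counting options are not given in the sources used here. Totals were 52950913 and 53216727 counts.

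Each library's counts were divided by a size factor from the median of ratios (DESeq2 1.42.0, R 4.3.3), 1.11 for wild-type and 0.901 for Ucp1-KO. Among genes with 1 to 10 counts 70.7% (wild-type) and 73.4% (Ucp1-KO) were even, as when both mates of a pair are counted, so intervals were computed on counts divided by 2: an exact Poisson interval for a count and an exact conditional binomial (Clopper-Pearson) interval for a ratio, at 95%. A difference between the log2 ratios of 2 genes has a normal interval from the 4 counts. They express counting error alone: reads carried no molecular identifiers, so copies of 1 molecule may be counted more than once. The code was tested on simulated data. Ratios used a pseudocount of 0.5, and genes were examined if their normalised counts averaged 10 or more.

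The members, lists, motifs and rules were chosen with earlier results of these data known. The rule for names took the 10 genes, the 3 largest ratios in size of each list with normalised counts averaging 100 or more (or a whole list of up to 4 genes), and Atf4, Ddit3, Ppp1r15a, Trib3, Ucp1, Acta1 and Ddx3y. A gene that the rule takes is not reported here. Dnajc3, Ern2, Clgn, Chac1 and Col6a1 were named in addition, after their values were seen, as were genes that overlap members. Since 2 libraries give 1 ratio per gene, no search for genes of like pattern was made. Positions and transcript lengths are those of GENCODE mouse release 39 (GRCm39), joined by symbol. Promoter sequences are from RefSeq. The alternatives were TMM factors (edgeR 4.0.16), total counts with and without mitochondrially encoded genes, other pseudocounts, filters and size rules, intervals on the counts as deposited and, chosen after seeing the data, another transcript length.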

Additional observations from a re-analysis of the deposited data

How the results depend on the processing

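No paired analysis was possible because wild-type and Ucp1-KO are 1 library each, which also bars leaving one out. Scaling by total counts shifted all genes (median -0.31). Under it the median of the 10 genes was -0.32 and that of the other pathway genes -0.22. Among the 10 genes 3 lay above 0 and 6 below (14.4% and 53.9% of all genes), with 1 at least 2-fold lower (Herpud1, -1.18), and over all genes 732 were at least 2-fold higher and 2320 lower. Of the genes past 2-fold 24.0% were higher, in place of 43.7%. Relative to the shift, a measure chosen after seeing the data, the median of the 10 genes moved from -0.0078 to -0.0043. Per gene the value was 0.41 for Dnajb9, 0.34 for Atf6, 0.33 for Hspa5, 0.15 for Ern1, -0.31 for Hsp90b1, -0.32 for Xbp1, -0.45 for Eif2ak3, -0.74 for Pdia4 and -1.18 for Herpud1, each outside its interval, and -0.57 for Sdf2l1, within it. TMM factors, total counts without mitochondrially encoded genes and a pseudocount of 5 left all 10 within their intervals. Intervals on the counts as deposited put 3 of the 10 genes below 0 in place of 2, and 35.8% of all genes in place of 30.5%. The gene added was Eif2ak3. The summed normalised counts of the 10 genes gave 0.30. A 1.5-fold size rule took in 3 higher members and 1 lower, and 2348 higher and 2728 lower genes in all. Without a filter 2187 genes were 2-fold higher and 2844 lower, and with a minimum mean of 50 these were 617 and 811. Depth limits Sdf2l1 and Ern1, whose intervals are wide.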
